A study of Mus musculus with 55 samples.

Results

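The 9 genes described here encode proteins of the specific (secondary) and gelatinase (tertiary) granules of neutrophils: CAMP, LTF, LCN2, MMP8, MMP9, ORM1, CD177, HP and PGLYRP1. They were taken by symbol from the deposited tables, which list 15728 gene symbols, and all 9 were found in all 55 libraries. The libraries are MARS-seq libraries, a 3′ RNA-seq method for small samples, made from 4 sorted mouse populations: granulocytes, CD4+ T helper cells, CD8+ T cytotoxic cells and CD4+CD25+ T reg cells. Each population came from normal bone marrow and from marrow at an early metastatic stage (Premet in the library titles). At the late stage it came from 2 sites of the same mouse, the peripheral marrow and the metastatic core. In that order of stages there were 4, 4, 4 and 3 granulocyte libraries, 4, 4, 4 and 3 CD4+ libraries, 4, 4, 2 and 2 CD8+ libraries, and 4, 3, 3 and 3 T reg libraries. The labels give the core as the source tissue of the T cell libraries of the lesion, and bone marrow as the tissue of all granulocyte libraries, the core ones included. The title of the series names breast cancer bone metastasis. The sources used here give no strain, age, sex, tumour line or treatment of the mice. The labels do not say that libraries of one group came from separate mice, so p-values measure the spread between these libraries.

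Neutrophils build their granules in order as they mature in the bone marrow. Azurophil granule proteins such as elastase are made at the promyelocyte stage, specific granule proteins such as lactoferrin and cathelicidin at the myelocyte and metamyelocyte stages, and gelatinase granule proteins at the metamyelocyte and band stages. The transcription factor C/EBPε (CEBPE) is required for specific granule genes in mice and humans. Mature neutrophils leave the marrow with the proteins stored and with much of the matching mRNA lost, so in marrow these transcripts mark maturing cells above all.

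The files give human-style symbols and identifiers (CAMP is ENSG00000164047) for mouse reads. On the mouse genome (GRCm38), Camp lies at chr9:109847379-109849617 (minus strand), Ltf at chr9:111019271-111042767 (plus), Mmp8 at chr9:7558456-7568485 (plus), Lcn2 at chr2:32384633-32388252 (minus) and Mmp9 at chr2:164940780-164955850 (plus). Orm1 lies at chr4:63344560-63348163 (plus), Cd177 at chr7:24743983-24760311 (minus), Hp at chr8:109575128-109579172 (minus) and Pglyrp1 at chr7:18871331-18890459 (plus). None of these loci overlaps another annotated gene on either strand. Orm1 has near-identical neighbouring paralogs, and the ORM2 row is at 0 in all libraries, so ORM1 values are uncertain.

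RefSeq promoter windows (GRCm38.p6) were matched for 6 of the 9 genes. The 4 sequences below are the bases of these windows that lie outside annotated exons. They are those of CAMP and LTF, for which every metastatic-stage granulocyte library lay below every normal one. The others are those of CD177 and PGLYRP1, for which no granulocyte stage difference passed. Capitals mark matches, on either strand, to 2 myeloid motifs: C/EBP (TTNNGNAA) and PU.1 (GAGGAA). The sequences run 5′ to 3′ on the strand of the gene.
CAMP: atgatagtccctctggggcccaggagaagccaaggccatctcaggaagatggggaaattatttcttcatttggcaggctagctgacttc
LTF: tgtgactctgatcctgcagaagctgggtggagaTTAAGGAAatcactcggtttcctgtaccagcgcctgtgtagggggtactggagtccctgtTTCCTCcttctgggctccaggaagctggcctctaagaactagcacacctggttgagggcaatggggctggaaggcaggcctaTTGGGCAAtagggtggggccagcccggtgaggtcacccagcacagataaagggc
CD177: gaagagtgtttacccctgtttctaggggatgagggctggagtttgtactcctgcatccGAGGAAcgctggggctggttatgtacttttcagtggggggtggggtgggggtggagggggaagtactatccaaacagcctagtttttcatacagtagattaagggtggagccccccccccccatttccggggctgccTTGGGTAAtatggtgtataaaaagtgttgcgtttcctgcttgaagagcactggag
PGLYRP1: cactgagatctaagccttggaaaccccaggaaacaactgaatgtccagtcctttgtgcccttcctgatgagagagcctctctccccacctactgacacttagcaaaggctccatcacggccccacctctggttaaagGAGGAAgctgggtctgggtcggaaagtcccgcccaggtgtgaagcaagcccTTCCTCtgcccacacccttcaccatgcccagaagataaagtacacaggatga
The CAMP sequence is chr9:109849618-109849706 (minus strand), LTF is chr9:111019042-111019270 (plus), CD177 is chr7:24760312-24760561 (minus) and PGLYRP1 is chr7:18884440-18884679 (plus). The PGLYRP1 sequence lies inside the annotated span of Pglyrp1 given above, not upstream of it. The LTF sequence holds 2 C/EBP matches, TTAAGGAA at -217 and TTGGGCAA at -75, and 1 PU.1 match at -157, counted from the transcript start. CD177 has 1 C/EBP match at -55 and 1 PU.1 match at -192. PGLYRP1 has 2 PU.1 matches, at -113 and -62, and no C/EBP match. The window of CAMP, 250 bases, holds no match to these letters of either motif. Of 32851 promoter windows of 250 bases, 36.8% hold a C/EBP match and 23.3% a PU.1 match, so a match in any one window is common.

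Granulocyte libraries held 357058 to 1633022 reads, CD4+ libraries 68263 to 876798, CD8+ libraries 43224 to 1148806 and T reg libraries 90075 to 429903. Transcripts typical of lung (SFTPC, SCGB1A1, MGP and others) summed to 200 or more in deposited units in 24 of the 55 libraries, among them 2 of 4 normal, 2 of 4 early, 1 of 4 peripheral and 2 of 3 core granulocyte libraries. The granulocyte label was matched by mean S100A8 levels of 67694 to 81385 CPM (reads scaled to a common library total) over the 4 stages. In CD4+ libraries S100A8 averaged 929 to 4002 CPM. CD3E, a subunit of the T cell receptor complex, averaged 0.269 to 3.74 CPM in granulocyte libraries. CD3D, another subunit, averaged 537, 155, 140.4 and 129 CPM there from normal to core. Not all neutrophil genes went with S100A8. Against CD4+ libraries, 3 of 5 tested neutrophil markers were higher and 2 lower at each stage (limma, adjusted p under 0.05). Of 10 azurophil granule genes, 1 was higher and 7 lower in normal, early and peripheral marrow, and 1 and 5 in the core. The T reg label was not matched: FOXP3, the defining T reg factor, averaged 4.22 CPM in normal T reg libraries and 31.7 CPM in normal CD4+ libraries, while C1QA, a macrophage gene, averaged 9618 and 280 CPM. These libraries are therefore called the CD4+CD25+ gate below.

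In granulocytes the 9 transcripts together made up 13.8% ± 0.49 of all reads in normal marrow, 10.2% ± 0.90 at the early stage, 8.92% ± 1.45 in late peripheral marrow and 8.36% ± 1.91 in the metastatic core (SD, n = 4, 4, 4 and 3). CAMP was lower than in normal marrow at the early stage and at the 2 late sites, with an early call that several alternatives lost. ORM1 was lower in late peripheral marrow, and LTF had lower values without passing the test. LCN2, MMP8, MMP9, CD177, HP and PGLYRP1 did not pass in any stage comparison. In bulk libraries, fewer cells of a maturation stage and less RNA per cell cannot be told apart. Levels within granulocytes are given below as the deposited normalised read counts, and tests are limma tests on log2(value + 4) with Benjamini-Hochberg adjustment over 3808 genes and a threshold of 0.05.

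CAMP encodes the cathelicidin precursor, the source of an antimicrobial peptide. Its normalised counts were 27437, 27162, 20721 and 22753 in normal granulocytes, 16117, 11279, 9793 and 11723 at the early stage, 11567, 5397, 4990.4 and 9589 in late peripheral marrow, and 10985, 6237 and 6092 in the core. Every early, peripheral and core library lay below every normal library, and the peripheral and core ranges overlapped. Group means were 24518 ± 3319 in normal marrow, 12228 ± 2721 early, 7886 ± 3216 peripheral and 7771 ± 2784 in the core (SD). CAMP fell by 1.02 ± 0.28 (SE) on the log2 scale at the early stage relative to normal marrow (adjusted p = 0.0410), by 1.72 ± 0.28 in peripheral marrow (adjusted p = 0.00102) and by 1.70 ± 0.30 in the core (adjusted p = 0.00115). With edgeR the early adjusted p was 0.0586 (TMM) and 0.0521 (RLE), with DESeq2 0.00743, and without the filter on low values 0.0792. The early limma call was also lost when any 1 normal library, or early library 2, 3 or 4, was left out (adjusted p between 0.0701 and 0.127), while the peripheral and core calls held without any 1 of the 15 libraries. Without the libraries holding lung transcripts, which leaves 1 core library, the core fold change was -0.98 (adjusted p = 0.101) and the early one -0.92 (adjusted p = 0.151).

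LTF encodes lactoferrin, an iron-binding protein that is the classical marker of specific granules. It had 13828, 14381, 14794 and 11861 normalised counts in normal granulocytes and 10930, 10816, 6487 and 11077 at the early stage. It had 7146, 2644, 7083 and 8464 in peripheral marrow and 9302, 2930.4 and 9847 in the core. All metastatic-stage libraries lay below the lowest normal library, and peripheral library 2 and core library 2 were far below the others of their sites. The log2 fold change against normal marrow was -0.51 ± 0.38 early, -1.24 ± 0.38 in peripheral marrow and -1.08 ± 0.41 in the core, with adjusted p of 0.623, 0.0526 and 0.0947. Core and peripheral libraries share numbers in their file names, which were read as mouse numbers and taken as a block (the mouse block). With it, the peripheral (-1.24, adjusted p = 0.000705) and core (-0.90, adjusted p = 0.0131) differences passed in limma. The block takes differences between late mice out of the spread, and no normal library carries the number of a late one. Adjusted p with the block against normal marrow are therefore likely too small. Peripheral library 2 and core library 2 carry the same number in the file name. The peripheral difference also passed with DESeq2 (adjusted p = 0.0131) and edgeR with RLE factors (0.0480), and both passed when scaled to reads outside the 9 genes, S100A8 and S100A9 (peripheral 0.0303, core 0.0281). The peripheral difference passed in limma when any 1 core library, early library 3 or peripheral library 4 was left out, and the core one without peripheral library 2.

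ORM1 encodes alpha-1-acid glycoprotein, a plasma acute-phase protein that is also stored in neutrophil granules. It was the least abundant of the 9, with 96.3, 60, 50.8 and 37.7 normalised counts in normal granulocytes and 47.6, 36.9, 20.2 and 39.3 at the early stage. The counts were 39.7, 14.6, 22.3 and 21.0 in peripheral marrow and 25.3, 21.5 and 41.8 in the core. Each metastatic group overlapped the normal range at its upper end. ORM1 fell by 1.19 ± 0.31 on the log2 scale in peripheral relative to normal marrow (adjusted p = 0.0227), and its fold change was -0.68 ± 0.31 early (adjusted p = 0.284) and -0.93 ± 0.33 in the core (adjusted p = 0.0760). The peripheral call was lost without normal library 1 (adjusted p = 0.0879) or 2 (0.0604), without peripheral library 2 (0.0806) or 3 (0.0613), and without the filter on low values (0.0560).

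LCN2 encodes lipocalin-2, which binds bacterial siderophores. It had 18306, 17479, 17999 and 16719 normalised counts in normal granulocytes, 24381, 15195, 16040 and 15039 early, 14229, 8881, 13217 and 15537 in peripheral marrow, and 21170, 9578 and 20021 in the core. The peripheral libraries all lay below the normal ones, whereas early and core libraries lay on both sides. The difference from normal marrow was -0.03 ± 0.26 early, -0.47 ± 0.26 in peripheral marrow and -0.14 ± 0.28 in the core (log2, adjusted p = 0.991, 0.298 and 0.798). Its 95% interval in the core ran from -0.73 to 0.45.

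PGLYRP1 encodes a peptidoglycan recognition protein that kills bacteria. Its normalised counts were 3561, 3476, 3595 and 3346 in normal granulocytes, 5096, 3773, 3254 and 3585 early, 2646, 1577, 3034 and 3347 in peripheral marrow, and 4873, 1708 and 3885 in the core. The normal libraries lay within a narrow band that every metastatic group reached or straddled. The fold changes against normal marrow were 0.15 ± 0.29, -0.45 ± 0.29 and -0.13 ± 0.31 on the log2 scale for early, peripheral and core (adjusted p = 0.925, 0.384 and 0.833). HP encodes haptoglobin, which binds free haemoglobin. It had 2622, 2367, 2160.4 and 2754 normalised counts in normal marrow, 3546, 3204, 2234 and 3178 early, 2506, 2117, 3133 and 3422 in peripheral marrow, and 3636, 2007 and 2847 in the core. All groups overlapped, and the log2 fold changes were 0.28 ± 0.22, 0.16 ± 0.22 and 0.16 ± 0.24 (adjusted p = 0.646, 0.722 and 0.732).

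CD177 encodes a membrane protein that presents proteinase 3 on the surface of human neutrophils. It averaged 1927 ± 138 normalised counts in normal granulocytes, 2114 ± 320 early, 1827 ± 425 in peripheral marrow and 2020 ± 696 in the core, with log2 fold changes of 0.13, -0.10 and 0.00 and adjusted p of at least 0.819. The core value lay between -0.51 and 0.52 (95% interval). MMP9 encodes gelatinase B, the enzyme that gives gelatinase granules their name. It had 2165, 2690.1, 2954 and 2835 normalised counts in normal granulocytes, 1760.4, 2636, 3513 and 2575 early, 2166, 2322, 2352 and 2961 in peripheral marrow, and 3348, 1739.8 and 2034 in the core. The groups overlapped, and the fold changes were -0.05 ± 0.23, -0.12 ± 0.23 and -0.21 ± 0.25 on the log2 scale (adjusted p = 0.979, 0.797 and 0.645). MMP8 encodes the neutrophil collagenase. It had 729, 358, 637 and 373 normalised counts in normal granulocytes, 430, 487, 142 and 392 early, 347, 151, 498 and 363 in peripheral marrow, and 172, 257 and 651 in the core. It was the most variable of the 9, and its fold changes of -0.60 ± 0.47, -0.67 ± 0.47 and -0.69 ± 0.50 did not pass (adjusted p = 0.646, 0.435 and 0.405).

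**Figure D1:**
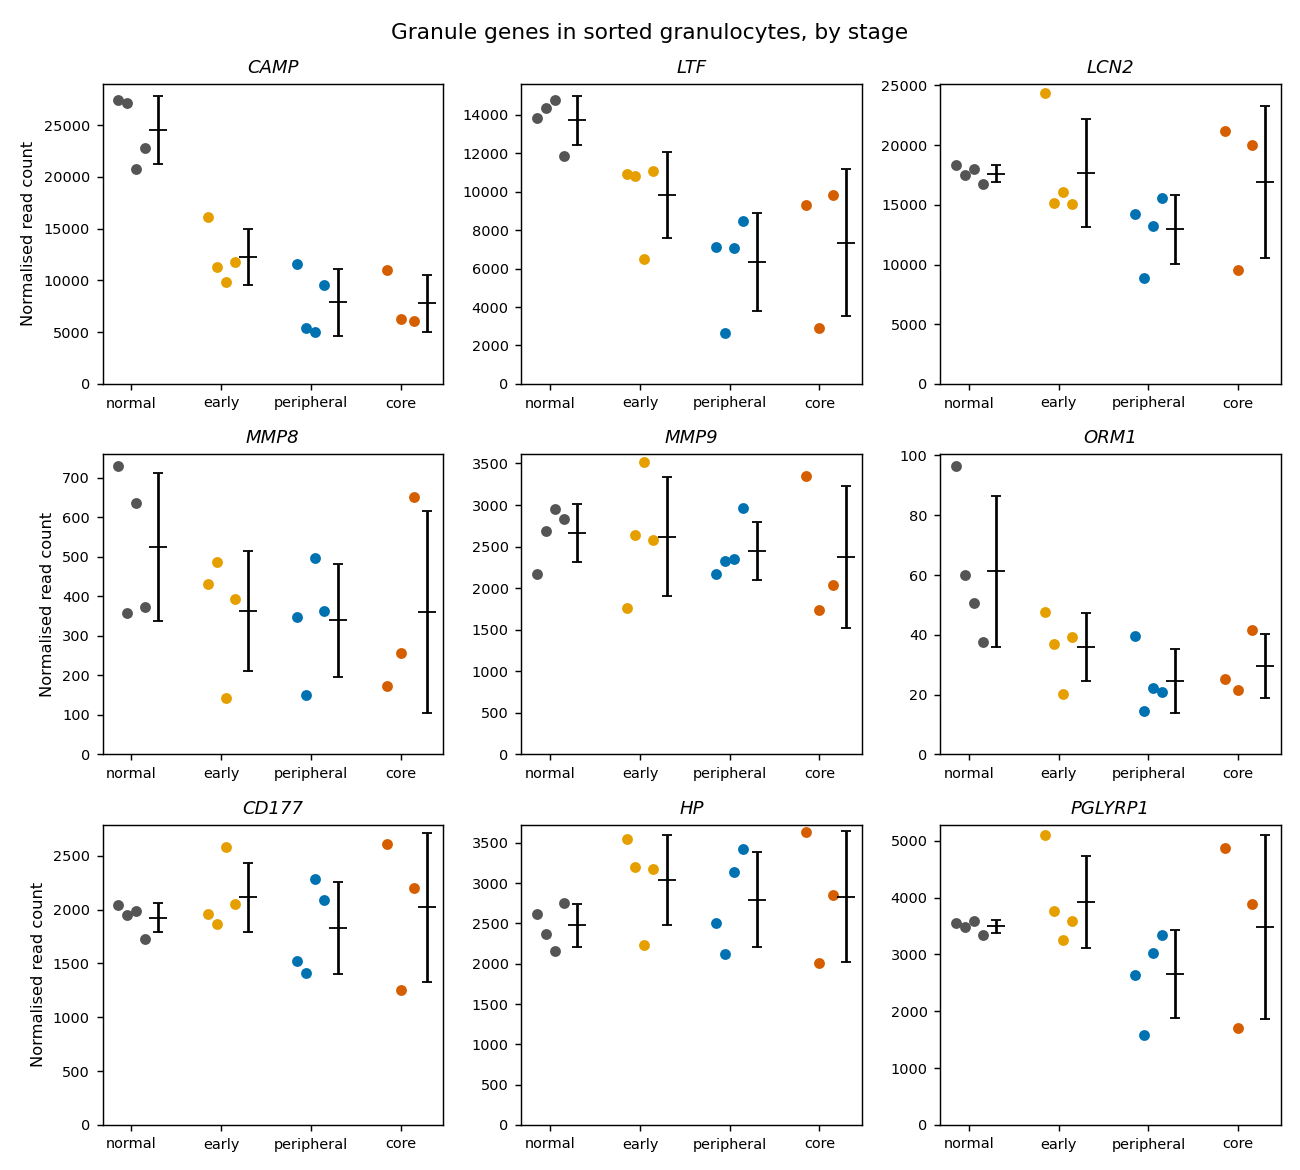
Deposited normalised read counts of the 9 genes in each of the 15 granulocyte libraries, 1 panel a gene, by stage and site (points are libraries, bars mean ± SD). All 11 metastatic-stage libraries lie below the 4 normal libraries for CAMP and LTF, whereas the groups overlap for MMP8, MMP9, CD177, HP and PGLYRP1.

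Read over the 9 genes, 1 passed at the early stage, 2 in peripheral marrow and 1 in the core, all lower, where 4.78%, 8.14% and 12.6% of the 3808 tested genes passed in either direction. CAMP and LTF did not overlap with normal marrow at the early stage and in the core, nor did CAMP, LTF and LCN2 in peripheral marrow. Of all tested genes, 6.54%, 13.6% and 10.8% were lower without overlap in the early, core and peripheral comparisons. Scaled to reads outside the 9 genes, S100A8 and S100A9, the median of all tested genes moved to -0.16 early and -0.21 in the core, and calls split into 91 higher and 135 lower early and 184 and 461 in the core, in place of 116 and 66 early and 231 and 247 in the core. CAMP stood at -1.20, -1.72 and -1.87 on that scale, and CD177 turned negative early and in the core, PGLYRP1 early and HP in the core. The median log2 fold change of the 9 genes was -0.05 early, -0.47 in peripheral marrow and -0.21 in the core, against 0.00, -0.01 and -0.07 over all tested genes. These 3 comparisons share their normal libraries. Between core and peripheral marrow none of the 9 passed in limma, edgeR or DESeq2 and none had an unadjusted limma p under 0.05, where 1.68% of genes passed. CAMP differed there by 0.02 ± 0.30 (log2, core minus peripheral) with a 95% interval from -0.62 to 0.65, and LTF by 0.15 ± 0.41 with an interval from -0.71 to 1.02. Both turned negative when scaled to the other reads (-0.14 and -0.01), where the median of all genes was -0.20. Peripheral against early granulocytes gave no passing gene at all (0% of those tested). Of the 9 members 1, CAMP, had an unadjusted p under 0.05 (-0.70 ± 0.28, unadjusted p = 0.0218, adjusted p = 0.498).

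**Figure D2:**
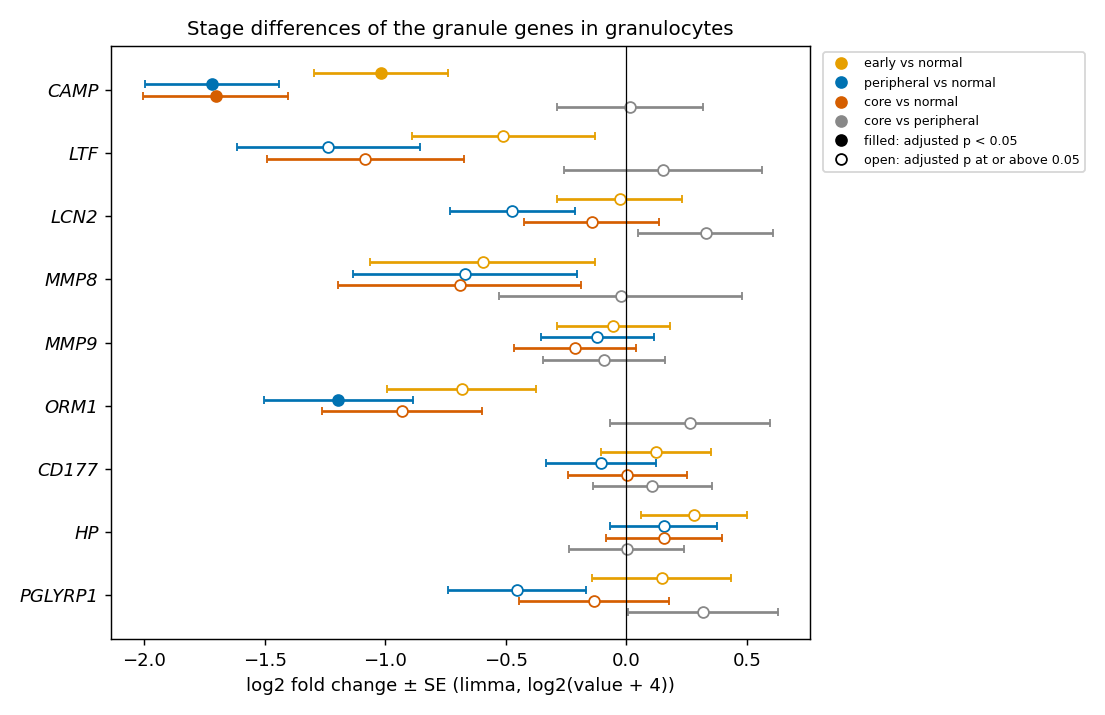
Log2 fold changes (points, with SE as bars) of the 9 genes in granulocytes for 4 comparisons, filled where the adjusted p was under 0.05. Filled points are CAMP in the early, peripheral and core comparisons with normal marrow and ORM1 in the peripheral one, and no point is filled for core against peripheral marrow.

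Because both are read counts of the same library, the ratio of CAMP to LCN2 reads does not depend on scaling. It was 1.5, 1.55, 1.15 and 1.36 in normal granulocytes, 0.661, 0.742, 0.611 and 0.780 early, 0.813, 0.608, 0.378 and 0.617 in peripheral marrow, and 0.519, 0.651 and 0.304 in the core. CAMP reads thus outnumbered LCN2 reads in all 4 normal libraries and in none of the 11 others. The log2 ratio was lower than in normal marrow by 0.99 early, 1.25 in peripheral marrow and 1.56 in the core. Exact two-sided permutation tests of this ratio, chosen after its values were seen, gave p = 0.0286 early and peripheral and 0.0571 in the core, each the smallest these group sizes allow, and adjusted p = 0.171 over 48 such ratios. The ratio of PGLYRP1 to LCN2 reads lay between 0.178 and 0.248 in all 15 granulocyte libraries, with early libraries at 0.203 to 0.248, above normal libraries at 0.195 to 0.2. Its log2 value was 0.17 higher early than in normal marrow (exact two-sided permutation p = 0.0286, adjusted p = 0.171). In peripheral marrow the log2 ratio to LCN2 was 0.76 lower for LTF and 0.63 higher for HP than in normal marrow, with the same p and adjusted p.

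**Figure D3:**
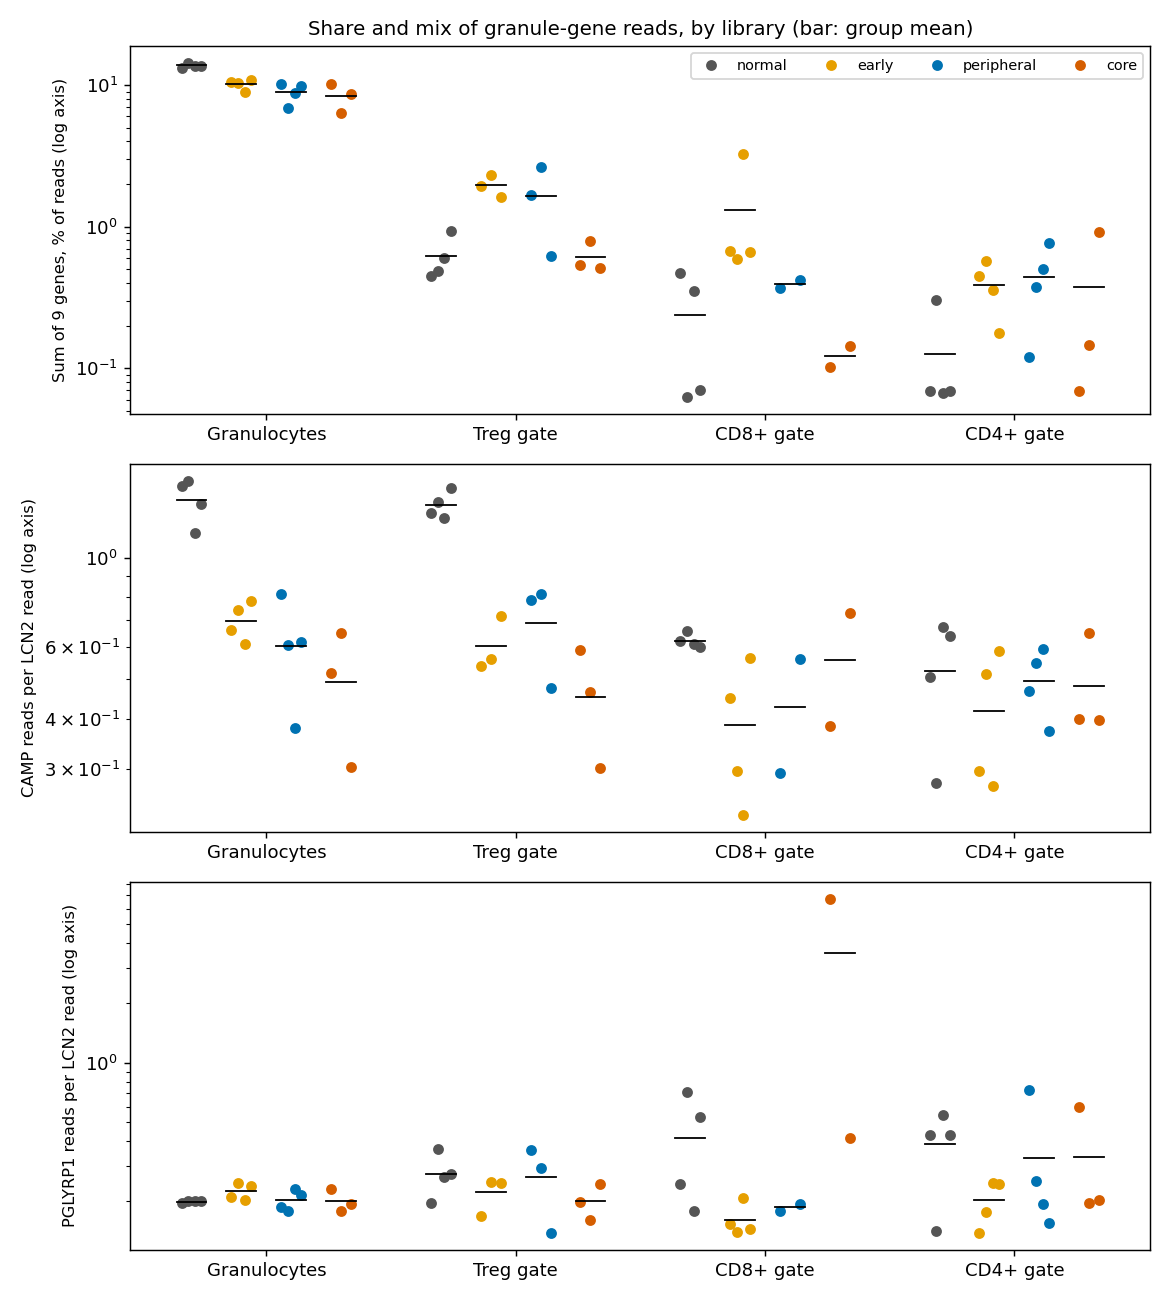
Reads of the 9 genes as a percentage of all reads (top), CAMP reads per LCN2 read (middle) and PGLYRP1 reads per LCN2 read (bottom) in each library by population and stage on log axes (points are libraries, bars group means). In granulocytes and in the CD4+CD25+ gate (Treg gate on the axis), CAMP outnumbers LCN2 in normal libraries only, while PGLYRP1 per LCN2 read stays near 0.2 in granulocytes and reaches 6.73 in 1 CD8+ core library.

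Across the 15 granulocyte libraries the closest pair was LCN2 with PGLYRP1 (Pearson r = 0.955 on log2 values), followed by LTF with PGLYRP1 (0.840) and LTF with LCN2 (0.826). CAMP went most closely with ORM1 (0.792) and LTF (0.760) and showed almost no relation to HP (0.01). The lowest value was that of MMP8 with MMP9 (-0.35), a weak one. These values describe 15 libraries that share stage groups, mice and scaling. Outside the 9, the genes most like CAMP among 3799 tested genes were CTSH (0.944), CD3D (0.934), TMEM216 (0.931), IFI27 (0.930) and CEBPE (0.921). Among those most like MMP9 were WBP2 (0.956), TSC22D4 (0.940), HPCAL1 (0.905) and DAB2IP (0.895).

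The transcription factors that direct granule gene expression were followed as a group of 10 tested genes. At the early stage 1 rose and 2 fell relative to normal marrow, in peripheral marrow 1 rose and 2 fell, and in the core 2 rose and 4 fell. Their median log2 fold changes were -0.19, -0.46 and -0.70, against 0.00, -0.01 and -0.07 over all tested genes. CEBPE had 655, 619, 634 and 674 normalised counts in normal granulocytes, 344, 330.1, 316 and 378 early, 266, 116, 180 and 267 in peripheral marrow, and 235, 101 and 226 in the core. No metastatic-stage library reached the normal range. CEBPE fell by 1.69 ± 0.27 in peripheral marrow (adjusted p = 0.000805) and by 1.86 ± 0.29 in the core (adjusted p = 0.000391), and its early fold change was -0.91 ± 0.27 (adjusted p = 0.0603). CEBPA, which acts earlier in granulocyte commitment, fell by 1.07, 1.47 and 1.66 (adjusted p = 0.0186, 0.00164 and 0.000581). GFI1, a repressor needed for neutrophil development, fell by 1.10 early (adjusted p = 0.0492) and 1.56 in the core (adjusted p = 0.00509). These calls rest on few reads. GFI1 had 6.75 to 13.9 normalised counts in normal marrow, 0.602 to 4.86 early and 0 to 2.39 in the core. Its peripheral values, 3.06 to 7.66, overlapped the normal ones. CEBPB, the factor of emergency granulopoiesis, rose by 2.17 ± 0.31 in the core (adjusted p = 0.000207). STAT3, which signals from the G-CSF receptor, rose by 0.74 early and 0.59 in peripheral marrow (adjusted p = 0.0134 and 0.0325). In the core STAT3 was also above normal marrow, at 148 to 205 against 103 to 111 normalised counts.

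**Figure D4:**
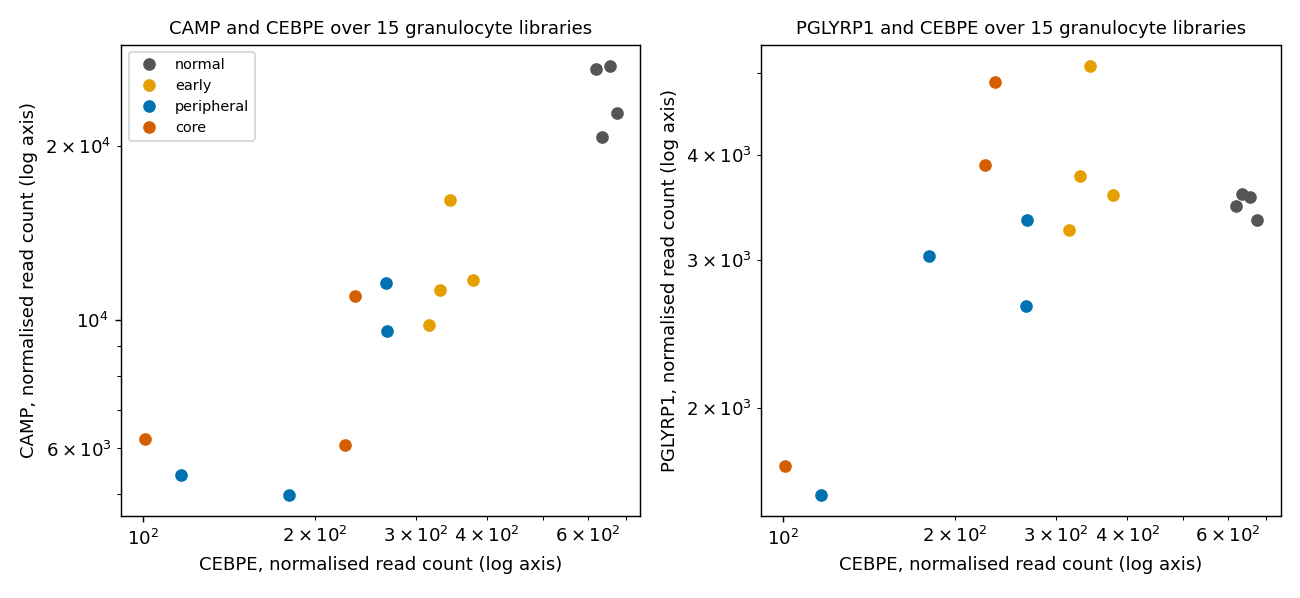
CAMP (left) and PGLYRP1 (right) against CEBPE, deposited normalised read counts on log axes, in the 15 granulocyte libraries coloured by stage. Normal libraries sit at 619 to 674 for CEBPE and at 20721 or more for CAMP, and libraries of the other stages lie below both values, whereas PGLYRP1 does not separate the stages.

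Other granule genes, receptors and maturation genes completed the picture in granulocytes. Of 15 further tested genes of specific, gelatinase and secretory granules, none passed early or in peripheral marrow and 1 fell in the core. That gene, SLPI, a secreted inhibitor of neutrophil proteases, had a log2 fold change of -0.72 ± 0.21 (adjusted p = 0.0287). Of 7 tested partners of the 9 proteins (receptors, inhibitors and ligands), none passed early or in peripheral marrow. In the core 1 rose, TREM1, a myeloid activating receptor that binds PGLYRP1 (1.86 ± 0.22, adjusted p = 2.8e-05), and it was also higher in core than in peripheral marrow (1.85 ± 0.22, adjusted p = 2.7e-05). Of 9 azurophil granule genes, 1 rose early (PRTN3, proteinase 3, 1.85 ± 0.48, adjusted p = 0.0352), 2 rose in peripheral marrow (CTSG, cathepsin G, 1.74 ± 0.36, adjusted p = 0.00601, and PRTN3, 1.93 ± 0.48, adjusted p = 0.0219) and none passed in the core. Of 12 genes of mature neutrophils, 4 rose early, 3 in peripheral marrow and 5 in the core, among them the interleukin-1 decoy receptor IL1R2 (1.29, 2.42 and 3.53 for early, peripheral and core) and the interferon-induced gene IFITM1 (3.74, 2.84 and 2.95). The others of the 12 did not pass, and the median log2 fold changes of the 12 were 0.76, 0.50 and 0.24.

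Markers of other cells were read beside these results. CD3D, the 1 tested T cell marker, fell by 1.72, 2.15 and 2.04 in early, peripheral and core granulocytes, alongside CAMP. The summed T cell markers (7 genes) averaged 547 CPM in normal, 163 in early, 147 in peripheral and 168 in core granulocytes, and CD3D alone averaged 537, 155, 140.4 and 129 CPM, while CD4 averaged at most 1.61 CPM and CD3E at most 3.74 CPM. Summed macrophage markers (10 genes) averaged 310, 334, 313 and 678 CPM in the same order. C1QA, C1QB and C1QC fell in peripheral relative to normal granulocytes and rose in the core. Early, C1QC fell by 1.05 (adjusted p = 0.0190), with C1QA at -1.04 and C1QB at -0.81 (adjusted p = 0.0770 and 0.0706). The part of these transcripts in the results for the 9 genes was not tested.

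Set against T helper cells of the same stage, granulocytes had higher levels of all 9 transcripts at all 4 stages (limma on log2(CPM + 10), 9491 genes). All 9 passed, where 38.8%, 39.4%, 38.7% and 31.4% of genes passed in either direction at the normal, early, peripheral and core stages. The groups did not overlap for any of the 9 at any stage, where 10.9%, 7.99%, 10.6% and 7.45% of genes were higher without overlap. CAMP averaged 50221 CPM in normal granulocytes and 203 CPM in normal CD4+ libraries, a log2 difference of 8.02 ± 0.69 (adjusted p = 1.2e-12), and LTF 28174 and 167 CPM (7.82 ± 0.68, adjusted p = 1.72e-12). The margin for CAMP was 5.33 early, 4.68 in peripheral marrow and 5.21 in the core. ORM1 had the smallest margin at each stage, 3.40, 2.64, 2.16 and 2.25 from normal to core. Levels of LCN2 in granulocytes averaged 36218, 34359, 31076 and 32664 CPM from normal to core, PGLYRP1 7185, 7690, 6319 and 6675 CPM, HP 5094, 6017, 6717 and 5550 CPM and MMP9 5509, 5297, 5941 and 4667 CPM.

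**Figure D5:**
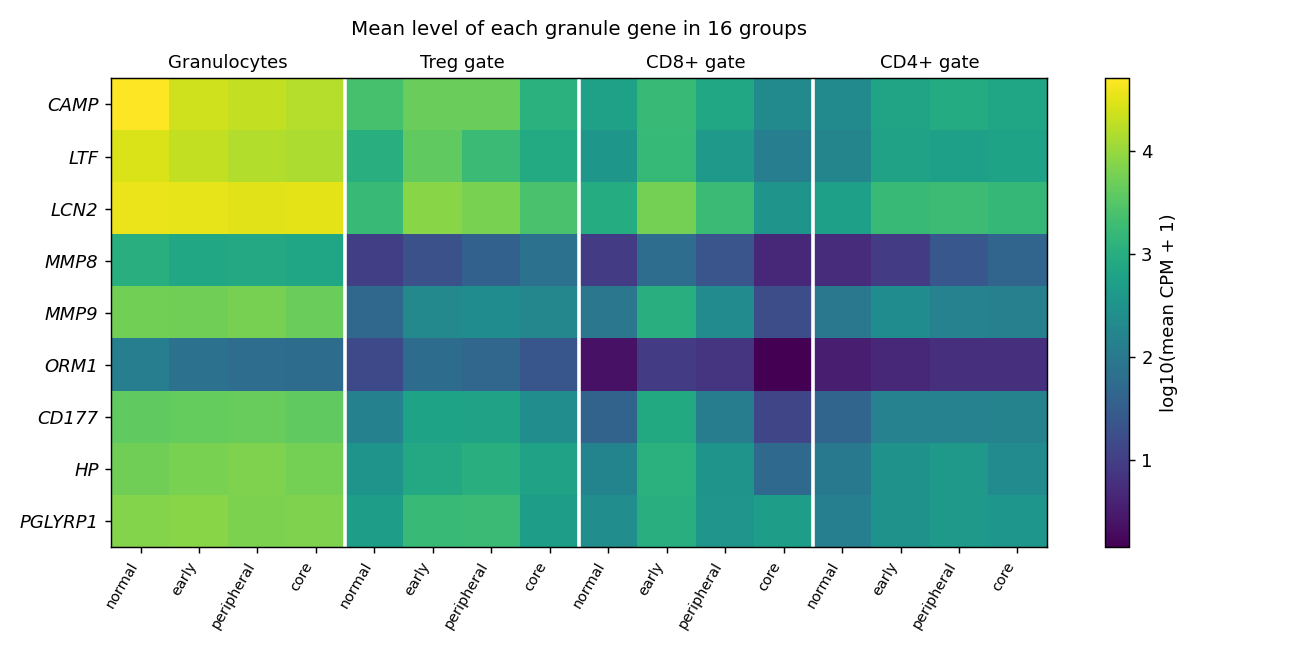
Mean level of each of the 9 genes in the 16 population and stage groups, as the log10 of mean CPM + 1 (colour). The 4 granulocyte columns are highest for all 9 genes, and the CD4+CD25+ gate comes next for CAMP, LTF and LCN2 in normal and early marrow.

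Transcripts of the 9 genes were also read in all T cell gates, at a far lower share. They summed to 0.127%, 0.389%, 0.439% and 0.376% of reads in CD4+ libraries from normal to core, to 0.239%, 1.3%, 0.394% and 0.122% in CD8+ libraries, and to 0.617%, 1.96%, 1.64% and 0.609% in the CD4+CD25+ gate. The CD8+ early mean rests on library 3, at 3.28%, the other 3 lying between 0.588% and 0.672%. In normal marrow 5 of the 9 were higher in the CD4+CD25+ gate than in CD4+ libraries, where 9.87% of genes passed: CAMP (3.56 ± 0.69, adjusted p = 0.000285), LTF (2.98 ± 0.68, adjusted p = 0.00221), LCN2 (2.16, adjusted p = 0.0429), HP (1.81, adjusted p = 0.0485) and PGLYRP1 (1.75, adjusted p = 0.0314). At the early stage 4 passed, where 4.25% of genes did: CAMP (2.95, adjusted p = 0.0159), LTF (2.79, adjusted p = 0.0206), ORM1 (2.40, adjusted p = 0.00128) and PGLYRP1 (2.48, adjusted p = 0.00935). None passed in peripheral marrow (0.79% of genes) or in the core (0%), and 6 and 1 members had an unadjusted p under 0.05. In normal marrow 2 passed with edgeR and TMM, 3 with RLE factors and 0 without libraries holding lung transcripts, and early 1 passed with TMM and with RLE. In peripheral marrow DESeq2 passed 3 and edgeR with RLE factors 1.

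The CD4+CD25+ gate also held other myeloid transcripts. Its macrophage markers summed to 25617, 16216, 14339 and 6084 CPM from normal to core, against 1301, 3344, 2857 and 3186 CPM in CD4+ libraries. ELANE, the elastase of azurophil granules, averaged 6356, 6807, 11582 and 1980 CPM in this gate and 52.4, 105, 157 and 56.2 CPM in granulocytes, and S100A8 averaged 4193, 18967, 10732 and 4793 CPM in the gate. The part of these cells' transcripts in the levels of the 9 genes was not tested. CD8+ and CD4+ libraries did not differ for any member in the limma fit at any stage (1.93%, 1.06%, 0% and 0.611% of genes passed), while 0, 2, 0 and 1 members had an unadjusted p under 0.05, and DESeq2 passed 3 in the early comparison.

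Within the CD4+CD25+ gate, the fold changes of the 9 transcripts against normal marrow had medians of 1.58 early, 1.47 in peripheral marrow and 0.50 in the core. LCN2 had 1321, 1303, 1826 and 2510.1 CPM in normal libraries, 7898, 9003 and 6120 CPM early, 5977, 9774 and 2798 CPM in peripheral marrow, and 1851, 3464 and 2209 CPM in the core. Early and peripheral libraries all lay above the normal ones. LCN2 rose by 1.74 ± 0.42 (log2, deposited scale) in peripheral relative to normal marrow (adjusted p = 0.0485), the 1 member to pass there, where 2.52% of 4793 genes passed. That call held without core library 2 or peripheral library 3 and was lost when any other single library of the gate was left out, and without peripheral library 3 there were 4 passing members (LCN2, CD177, HP and PGLYRP1). At the early stage 7 members lay above all normal libraries (CAMP, LTF, LCN2, ORM1, CD177, HP and PGLYRP1), where 4.59% of genes did. None of the 9 passed in limma there, where 0.167% of genes passed, although 7 had an unadjusted p under 0.05. LTF had a fold change of 2.00 ± 0.38 (adjusted p = 0.0522) and LCN2 of 2.18 ± 0.42 (adjusted p = 0.0684). Without peripheral library 3 there were 5 passing members at the early stage. DESeq2 passed 4 members and the mouse block 4, while edgeR passed 2 with TMM and 0 with RLE factors.

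In the core of the CD4+CD25+ gate 1 member passed against normal marrow, MMP8 (1.85 ± 0.47, adjusted p = 0.0243), where 6.24% of genes passed. It rested on few reads: 28, 5 and 9 in the core libraries, against 2, 4, 3 and 2 in the normal ones. The call was lost without normal library 1, 2 or 4 or core library 1 or 2. CAMP had 1094, 1610 and 667 CPM in the core, against 1698, 1786, 2279 and 3742 CPM in normal marrow, so that the groups did not overlap, where 12.4% of genes were lower without overlap. MMP8 and MMP9 were higher without overlap, where 7.53% of genes were. The fold change of CAMP was -1.11 ± 0.60 (adjusted p = 0.365). CAMP passed with the mouse block (adjusted p = 0.0110), which leaves differences between late mice out of the spread. Core against peripheral libraries gave no passing member, where 1.52% of genes passed. The unadjusted p was under 0.05 for 4 members. DESeq2 and the mouse block each passed 2 members, and leaving out peripheral library 3 gave 6 (all but MMP8, MMP9 and ORM1).

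The ratio of CAMP to LCN2 reads in the CD4+CD25+ gate followed the granulocyte values. It was 1.29, 1.37, 1.25 and 1.49 in normal libraries, 0.538, 0.560 and 0.717 early, 0.784, 0.811 and 0.477 in peripheral marrow, and 0.591, 0.465 and 0.302 in the core. CAMP reads outnumbered LCN2 reads in the 4 normal libraries and in none of the 9 others. The log2 ratio differed from normal by -1.16, -1.001 and -1.62 in early, peripheral and core libraries (exact two-sided permutation p = 0.0571 each, the smallest possible, adjusted p = 0.171). CD8+ normal libraries stood at 0.600 to 0.660 and CD4+ normal libraries at 0.277 to 0.672, below the normal granulocyte range.

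In CD4+ libraries 7 members were tested (MMP8 and ORM1 were too low) and none passed in any stage comparison by limma, where 0%, 0%, 3.79% and 2.01% of 4534 genes passed for early, peripheral and core against normal marrow and for core against peripheral marrow. Unadjusted p was under 0.05 for 3, 3, 0 and 1 of them. Their median log2 fold changes against normal marrow were 1.62, 1.67 and 1.15 for early, peripheral and core. Lung transcripts were held by 3 of 4 normal, 1 of 4 early, 1 of 4 peripheral and 2 of 3 core CD4+ libraries. Within each stage these libraries had the lowest summed share of reads for the members. It was 0.0672% to 0.069% against 0.303% in normal marrow and 0.178% against 0.354% to 0.574% early. In peripheral marrow it was 0.12% against 0.377% to 0.761%, and in the core 0.0687% and 0.147% against 0.913%. The part of this split in the fold changes was not tested. HP and PGLYRP1 lay above all normal libraries in peripheral marrow, where 4.50% of genes did, and HP passed there with DESeq2 and with the mouse block. When core library 3 was left out, HP and PGLYRP1 passed in peripheral against normal marrow and HP in core against peripheral marrow. In CD8+ libraries 8 members were tested (not ORM1) and none passed, where 4.85%, 0%, 1.19% and 1.27% of 4891 genes passed in the same order. At the early stage 5 of the 8 had an unadjusted p under 0.05, LTF and LCN2 lay above all normal libraries (5.60% of genes did), and DESeq2 passed CD177, LTF and MMP9. LTF passed in limma there without normal library 1. Between core and peripheral CD8+ libraries, 2 against 2, 7 of the 8 tested were lower in the core without overlap, where 22.4% of genes were. Lung transcripts were held by 2 of 2 core and 0 of 2 peripheral CD8+ libraries, the same split as by site. In normal marrow the members summed to 0.0627% and 0.07% of reads in CD8+ libraries 2 and 4, which held lung transcripts. They summed to 0.47% and 0.353% in libraries 1 and 3, which did not. The part of this split in the core difference was not tested.

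Whether stage moved a member differently in granulocytes and in a T cell gate was tested as a difference of log2 fold changes over all 55 libraries. None of the 9 passed in any of the 9 differences (granulocytes minus CD4+, CD8+ or CD4+CD25+ for early, peripheral and core against normal marrow), where between 0.0527% and 2.31% of genes passed. The share of genes passing was 0.116%, 1.24% and 0.221% for the early differences, 0.158%, 0.0527% and 1.39% for the peripheral ones and 0.738%, 0.611% and 2.31% for the core ones, each in the order CD4+, CD8+, CD4+CD25+. Unadjusted p was under 0.05 for 3, 6 and 5 members early, 4, 2 and 3 in peripheral marrow and 3, 0 and 1 in the core. DESeq2 passed 1 member in 4 of the differences.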

How the data were processed

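RNA was isolated with the EZ-RNA kit, MARS-seq libraries were made and sequenced on a NovaSeq instrument, per the labels' protocols and the series' design text. Fastp 0.20.0, STAR 2.6.0c, DESeq2 1.30.1 and the builds GRCm38 and mm10 are named, per the submitters' processing notes. The deposited value of each gene is a signal: a read count that the authors divided by a factor of the library. How the factors were set is not stated, so levels are compared between populations in CPM. Dividing by the smallest step gave whole reads for 100% of values within 0.01, so counts per library and CPM were recovered. The sources used here do not give the handling of molecular identifiers. The member genes and the gene lists were chosen with earlier results of these data known.

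Stage comparisons used limma 3.58.1 (trend and robust) in R 4.3.3 on log2(deposited value + 4), with a separate fit for each population. Genes entered where the number of libraries reaching a value of 10 was no smaller than the smallest group. Population comparisons and differences of stage effects used log2(CPM + 10) over 55 libraries. The threshold was an adjusted p of 0.05. Fold changes on these scales understate those of low genes. Alternatives were edgeR 4.0.16 (TMM and RLE factors) and DESeq2 1.42.0 on recovered counts, other pseudocounts (1 and 16, or 40 for CPM), no filter, scaling to reads outside the 9 genes, S100A8 and S100A9, omission of 24 libraries with lung transcripts, replicate blocks and omission of each library. On the recovered counts edgeR with TMM passed 192, 341 and 417 genes in early, peripheral and core granulocytes against normal marrow, where limma passed 182, 310 and 478. Rows without a symbol held at most 0.0124% of a library's reads and were left out, and no pair of the 1485 held identical reads.

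Late core and peripheral libraries come from the same mice, per the series' design text. The numbers in the file names were read as the numbers of these mice. A block on them removes differences between late mice from the spread, so calls with it against normal marrow are likely too many. Deviations of same-numbered core and peripheral libraries correlated above 0.1 in 2 of 3 granulocyte pairs (-0.337 to 0.510), 3 of 3 CD4+ and 2 of 3 T reg pairs, and the CD8+ pairs give 1 value between them (0.111). All 9 members are named in every comparison. From each gene list up to 4 tested genes with the smallest p in a comparison, and the 5 genes most like CAMP and MMP9, could be named. One gene of the MMP9 list is not reported here. Numbers of reads limit precision by counting error, and depth is given with the results. The tests were also run on simulated data with planted changes.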

Additional observations from a re-analysis of the deposited data

Results flagged for a closer look

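Each group of 4 libraries or more was examined for a library standing apart from the rest of its group by a gap large for the group's range, in CPM, and 18 of 81 gene and group combinations had one. Chance alone marks about 1 in 20 groups of normally spread values. The combinations share libraries and are not independent, so 18 of 81 cannot be set against that share.

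CD8+ early library 3 was high for 6 genes: LTF at 2800 CPM (the other 3 at 1060 to 1210), LCN2 at 14200 (2640 to 2930), MMP9 at 3290 (139 to 414), CD177 at 2750 (82.9 to 284), HP at 3450 (304 to 375) and PGLYRP1 at 2930 (368 to 451). CD4+ normal library 2 was high for 5 genes: CAMP at 387 CPM (the other 3 at 133 to 150), LTF at 460 (66.5 to 72.9), LCN2 at 1400 (221 to 262), MMP9 at 264 (33.2 to 48.7) and CD177 at 112 (16.6 to 22.1).

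In granulocytes, LTF was low in peripheral library 2 at 7460 CPM (the other 3 at 17000 to 18300), and LCN2 was high in early library 1 at 40000 CPM (32100 to 33100). LTF was high in the CD4+CD25+ gate in normal library 4 at 1790 CPM (711 to 831). In CD4+ libraries MMP8 was high in peripheral library 4 at 63.0 CPM (6.75 to 14.9), and HP was low in early library 4 at 177 CPM (322 to 348). ORM1 was at 14.8 CPM in CD4+ early library 2 and at 5.49 CPM in CD8+ normal library 1, where the other 3 libraries of the group held no read, each on 2 reads. CD4+ normal library 2 alone of its group lay under the lung-transcript threshold of 200 (46.1, the others 1269 to 1513). CD4+ early library 4 alone of its group lay above it (1107, the others 33.4 to 77.3). All CD8+ early libraries lay under it, with library 3 at 40.1. What sets the flagged libraries apart was not tested.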

How the results depend on the processing

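Depth limits the low genes: MMP8 and ORM1 rest on 1 to 42 reads per group of T cell gate libraries. The peripheral and core calls of CAMP in granulocytes kept their direction and passed in the settings tried except, for the core, without lung-transcript libraries. Causes were not tested. Numbers of passing members that moved were as follows. Granulocytes early against normal (1 in the report): 0 without filter, with TMM, with RLE and without lung-transcript libraries, and 0 to 1 leaving out single libraries. Peripheral against normal (2): 1 without filter, 3 with the other scaling, RLE, DESeq2 and either block, 1 to 3 leaving out libraries. Core against normal (1): 3 with the other scaling, 0 without lung-transcript libraries, 2 with the mouse block, 1 to 2 leaving out libraries. CD4+ peripheral (0): 1 with DESeq2 and with the mouse block, 0 to 2. CD4+ core against peripheral: 0 to 1. CD8+ early (0): 3 with DESeq2, 1 with the title-number replicate block, 0 to 1. CD8+ core against peripheral: 0 to 1. CD4+CD25+ gate, early (0): 2 with pseudocount 16, the other scaling and TMM, and 4 with DESeq2, without lung-transcript libraries and with either block, 0 to 5. Its peripheral comparison (1): 0 with pseudocount 1 and without filter, 3 with TMM, RLE and the mouse block, 4 with the title block and without lung-transcript libraries, 5 with DESeq2, 0 to 4. Its core comparison (1): 0 with pseudocount 1 and without lung-transcript libraries, 2 with DESeq2 and the title block, 3 with the mouse block, 0 to 2. Its core against peripheral (0): 2 with DESeq2 and the mouse block, 6 without lung-transcript libraries, 0 to 6. The gate against CD4+, normal (5): 3 with pseudocount 1 and RLE, 2 with TMM, 0 without lung-transcript libraries, 2 to 5. Early (4): 1 with TMM and RLE, 1 to 5. Peripheral (0): 1 with RLE, 3 with DESeq2 and without lung-transcript libraries, 0 to 3. CD8+ against CD4+, early (0): 3 with DESeq2. Granulocytes against CD4+, core (9): 5 without lung-transcript libraries. Differences between populations (0): 1 with DESeq2 (CD8+ early, CD4+ peripheral, CD4+ core, CD4+CD25+ peripheral), 1 with pseudocount 40 (CD4+CD25+ early and peripheral), and 0 to 1 for CD4+CD25+ peripheral leaving out libraries. The mouse block, for the number shared by core and peripheral libraries, changed no other number of passing members by over 1.5 times.

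Signs turned for small granulocyte differences (log2). Early: LCN2 0.013 with TMM, CD177 -0.058 and PGLYRP1 -0.035 with the other scaling. Peripheral: CD177 0.026 without lung-transcript libraries. Core: LCN2 0.287, MMP9 0.210 and PGLYRP1 0.490 without lung-transcript libraries, CD177 -0.157 and HP -0.004 with the other scaling, PGLYRP1 0.047 with TMM and 0.050 with RLE and DESeq2. Core against peripheral: CAMP -0.143, LTF -0.006, CD177 -0.050 and HP -0.157 with the other scaling, MMP8 0.110 with TMM, 0.137 with RLE, 0.145 with DESeq2 and 0.048 with the replicate block, MMP9 0.002 with RLE and DESeq2, 0.404 without lung-transcript libraries and 0.001 with the replicate block. Leaving out single libraries gave, early, LCN2 -0.192 to 0.040 and MMP9 -0.209 to 0.123, peripheral CD177 -0.220 to 0.011, core LCN2 -0.347 to 0.225, CD177 -0.212 to 0.317, HP -0.044 to 0.384 and PGLYRP1 -0.439 to 0.317, and core against peripheral CAMP -0.262 to 0.231, LTF -0.225 to 0.722, MMP8 -0.559 to 0.387, MMP9 -0.370 to 0.101, CD177 -0.108 to 0.421 and HP -0.200 to 0.228. Over all genes DESeq2 passed 496 in peripheral granulocytes (310 in the report) and 119 in core against early (77), the filter's removal left 205 in peripheral granulocytes, and without lung-transcript libraries core comparisons passed 717 against normal (478), 599 against peripheral (64) and 931 against early marrow (77). Peripheral against early granulocytes gave 0 in limma, 14 with DESeq2 and 3 with the mouse block. Leaving out single granulocyte libraries gave 93 to 213 genes early, 146 to 393 in peripheral marrow, 266 to 531 in the core and 51 to 135 in core against peripheral marrow, with the lowest values without normal library 2, peripheral library 3 and normal library 3, and the 135 without core library 2.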

Other observations

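In CD8+ core library 1 PGLYRP1 had 491 reads, against 73 for LCN2, so that its ratio to LCN2 reads was 6.73, and in core library 2 the ratio was 0.418. Ratios above that of core library 2 were also read in CD8+ normal libraries 2 and 4 (0.713 and 0.530), CD4+ normal libraries 1, 3 and 4 (0.429, 0.547 and 0.430), CD4+ peripheral library 1 (0.724) and CD4+ core library 1 (0.600). All of these and both CD8+ core libraries hold lung transcripts. Lung transcripts were also held by libraries with lower ratios, CD4+ early library 4 (0.245) and CD4+ core library 2 (0.196) among them. In the CD4+CD25+ gate these were normal libraries 1, 2 and 4 (0.196, 0.366 and 0.273), early library 4 (0.247), peripheral library 3 (0.138) and core library 1 (0.197). In CD8+ peripheral libraries the ratio was 0.179 and 0.194, and in the 15 granulocyte libraries it was between 0.178 and 0.248. In CPM, PGLYRP1 averaged 493.5 in the core and 330 in peripheral CD8+ libraries, while LCN2 averaged 315 in the core and 1768 in peripheral libraries. With 2 libraries a group no difference passed, and the source of these reads was not tested.

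CEBPE was read in the T cell gates too, with the 9 genes. It averaged 193, 387, 549 and 110 CPM in the CD4+CD25+ gate from normal to core and 33.1, 93.5, 120 and 61.4 CPM in CD4+ libraries, against 1328, 682, 493.2 and 360 CPM in granulocytes.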
